A study of Mus musculus with 2 samples.

Results

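Nonclassical monocytes were chosen by the measured UMI counts of each cell in the blood libraries of WT and APP/PS1 mice, where a UMI (unique molecular identifier) marks 1 captured transcript. The rule found 3726 such cells among 34768, of which 2228 of 17123 lay in the WT library and 1498 of 17645 in the APP/PS1 library. A cell had to hold at least 1000 UMIs, at most 10% of them from mitochondrial genes and under 4% from S100a8 and S100a9, the alarmin genes that dominate neutrophil RNA. It also needed at least 1 UMI of Csf1r, the colony stimulating factor receptor of the monocyte lineage, no UMI of the B cell gene Cd79a, fewer than 4 UMIs of the platelet genes Ppbp and Pf4, and fewer than 10 UMIs of the MHC class II genes H2-Aa, H2-Ab1 and H2-Eb1. Finally, Ace, Adgre4, Ear2 and Eno3 together had to reach 3 UMIs and to exceed 2 times the sum of Ccr2, F13a1, Fn1 and Ly6c2. Because the same counts chose the cells, the levels of these genes in the members are given as a description and support nothing.

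The libraries came from a single-cell RNA sequencing study of blood neutrophils in the APP/PS1 model of Alzheimer's disease, a transgenic mouse that deposits amyloid in the brain. Cells of 3 female mice aged 7 months were pooled into 1 library per genotype, from C57BL/6J wild-type (WT) animals and from APP/PS1 transgenic animals. The promoter of the transgenes was not given in the sources used here, and genotypes were taken as labelled. Red cells were lysed and neutrophils were enriched by a negative-selection kit, so every monocyte measured here had escaped depletion, and the share of any cell type depended on the kit. With 1 library per genotype there was no replicate: no test was possible, genotype and library cannot be told apart, and all 95% intervals below cover counting error only.

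Nonclassical monocytes, also called Ly6C-low or patrolling monocytes, crawl along the inner wall of small blood vessels, sense damage there and clear debris from the endothelium. In the mouse they arise mostly from classical Ly6C-high monocytes and depend on the nuclear receptor Nr4a1, with C/EBP-beta as an upstream factor. They are known for high levels of the fractalkine receptor Cx3cr1, the integrin chain Itgal and the IgG receptor Fcgr4, and for low levels of the chemokine receptor Ccr2.

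The limit on S100a8 and S100a9 removed more cells than any other step. In the WT library 16315 cells held at least 1000 UMIs, 16281 also passed the mitochondrial limit, and 7961 of those passed the S100a8 and S100a9 limit. The requirement for Csf1r left 5481 WT cells, the absence of Cd79a 5348, the platelet limit 4256 and the MHC class II limit 3935. Of these, 2641 reached the marker sum and 2228 also passed the ratio. The same steps in the APP/PS1 library left 16760, 16725, 7390, 4201, 4078, 3243, 3023, 1805 and 1498 cells. The platelet limit removed more cells than the MHC class II limit in both libraries, and the minimum of marker UMIs removed more than either.

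The selected cells sat well inside the limits on the markers. Their summed UMIs of Ace, Adgre4, Ear2 and Eno3 had a median of 10 in WT (quartiles 7 and 15, highest 63) and 11 in APP/PS1 (quartiles 7 and 16, highest 54). All 4 markers were detected in 60.6% of WT and 61.2% of APP/PS1 members, and a single marker in 0.314% and 0.868%. No UMI of the classical genes was present in 66.3% and 68.6% of members, and no UMI of the MHC class II genes in 77.8% and 81.2%.

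**Figure D1:**
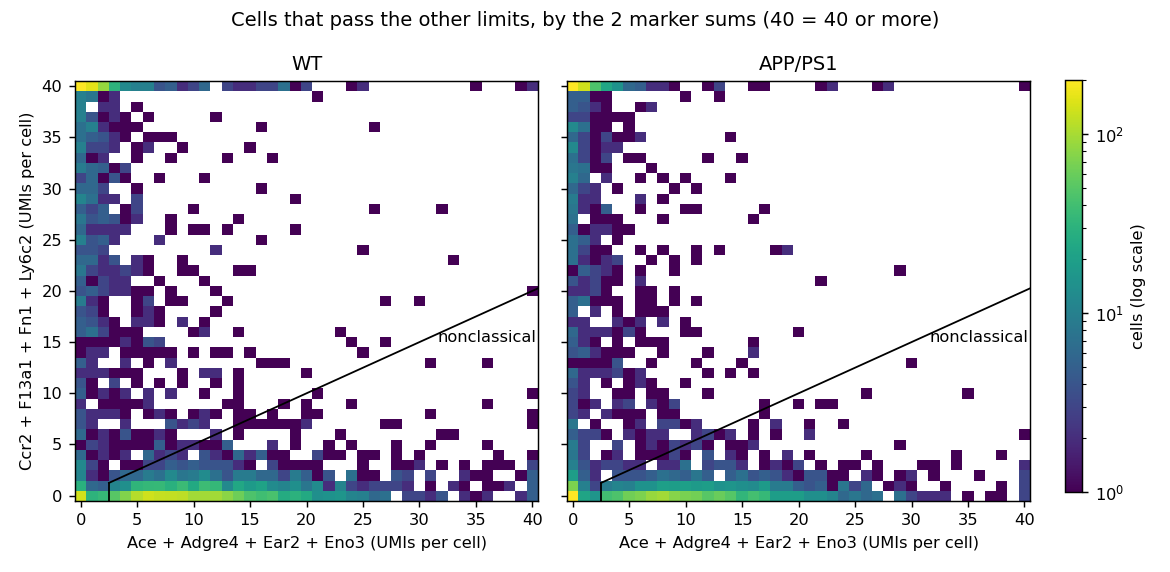
Cells that pass the other limits, by summed UMIs of the 4 nonclassical markers (x axis, UMIs per cell) and of the 4 classical genes (y axis, UMIs per cell), with the number of cells on a logarithmic color scale and values of 40 or more in the last bin; WT is on the left and APP/PS1 on the right. The black line bounds the 2228 WT and 1498 APP/PS1 nonclassical monocytes, most of which lie in the bottom row with 0 classical UMIs, apart from the column of classical monocytes along the y axis.

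Markers that the rule did not use were read in the cells just inside and just outside its limits. In WT, the 62 members with a marker sum of 3 held Cd300e, an activating receptor of nonclassical monocytes, at 225 CPM, the UMIs of a gene per 1e6 UMIs of the pooled cells. The 35 WT cells with a sum of 2 that otherwise met the ratio held it at 331 CPM. In APP/PS1 the values were 218 CPM in 49 members and 380 CPM in 16 excluded cells. At the ratio limit, Cd300e stood at 152 CPM in the 70 WT members with 2 to 3 times the classical genes and at 85.7 CPM in the 83 WT cells with 1 to 2 times. The APP/PS1 values at this limit were 84.3 CPM in 50 members and 74.96 CPM in 54 excluded cells, so Cd300e was higher outside than inside the limit on the sum and lower outside than inside the limit on the ratio. Other markers did not all follow: at the limit on the sum in APP/PS1, Treml4 was at 551 CPM inside and 461 CPM outside and Fabp4 at 732 and 271 CPM, and at the limit on the ratio in WT, Fabp4 was at 185 and 195 CPM.

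Barcodes found in both libraries numbered 83, which was 0.485% of WT and 0.470% of APP/PS1 barcodes. Among nonclassical monocytes 13 WT and 7 APP/PS1 cells carried such a barcode, and none of the 83 was a member in both libraries. Without these cells, 54 genes were higher and 94 lower between the genotypes, and 331 higher and 291 lower between the monocyte classes, close to the counts given below.

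Nonclassical monocytes were shallower than classical monocytes, which were defined by the same limits with at least 3 UMIs of the classical genes and a sum over 2 times that of the nonclassical markers. The median member held 4228 UMIs in WT (95% interval 4153 to 4305), and the median APP/PS1 member 4533.5 (4400 to 4623), against 8141 and 7728 UMIs in the 1293 and 1020 classical monocytes. Median genes detected were 1758 and 1827.5 per member. With every cell thinned to 1000 UMIs, the order of the genotypes turned: the WT median was 637 genes (635 to 638) and the APP/PS1 median 629 (627 to 631). Summed over members, the libraries gave 11036118 UMIs in WT and 7561528 in APP/PS1, of 92458623 and 84870864 UMIs in all cells.

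Nonclassical monocytes made up 13.7% of the WT cells that passed the limits on UMIs and mitochondrial genes (13.2 to 14.2) and 8.96% of the APP/PS1 cells (8.53 to 9.40), which differ by -4.73 percentage points (-5.41 to -4.05). Classical monocytes stood at 7.94% and 6.10% (difference -1.84). Neutrophils, taken as cells over the S100a8 and S100a9 limit with no Csf1r or Cd79a, stood at 33.5% and 36.6%. Cells over that limit with a UMI of Csf1r or Cd79a are left out, so this is not the share of all neutrophils. Among all Csf1r-positive cells that passed the same limits and had few MHC class II UMIs, 56.6% were nonclassical in WT (55.1 to 58.2), against 49.6% in APP/PS1 (47.8 to 51.4), which makes -7.07 points (-9.42 to -4.70). The classical share of these cells was 32.9% and 33.7%, and cells that met neither marker rule took 10.5% and 16.7%. The undecided cells were shallower in APP/PS1, with a median of 2529 UMIs against 3643 in WT, and their medians of genes (1056 against 1312.5), of mitochondrial UMIs (0.452% against 1.75%) and of S100a8 and S100a9 UMIs (1.22% against 0.244%) differed as well. Neutrophils had medians of 1001 and 957 genes and of 0.244% and 0.298% mitochondrial UMIs in APP/PS1 and WT. The difference of -7.07 points moved with the share of undecided cells, and their part in it was not tested. There were thus 1.72 nonclassical monocytes for each classical one in WT and 1.47 in APP/PS1. The depletion kit can set all these shares, and its part in the differences was not tested.

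The label was checked on 22 further nonclassical markers that the rule did not use. For this the CPM of the members was set beside that of the classical monocytes of the same library, and a gene counted as past the fold where the ratio was at least 2-fold in the same direction in both libraries, provided that a class of each library held 200 or more UMIs of it. Of 5203 genes that met this minimum, 331 (6.36%) were higher and 291 (5.59%) were lower in nonclassical monocytes. The rule used this contrast, so these counts are a description. All 22 markers met the minimum, 19 of them were past the fold upward and none downward, with a median log2 ratio of 2.34 in WT and 2.21 in APP/PS1 against 0.04 and 0.06 over all genes that met it. Cebpb, Klf2 and Lst1, the members not past the fold, had log2 ratios between 0.71 and 0.92. Of 17 classical markers not used by the rule 16 met the minimum, with 9 past the fold downward and none upward.

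Cd300e led the ranking outside the rule genes. It stood at 297 CPM in the WT and 276 CPM in the APP/PS1 nonclassical monocytes, against 9.69 and 4.67 CPM in classical monocytes, a log2 ratio of 4.94 (4.66 to 5.23) and 5.89 (5.42 to 6.39). With every cell thinned to 1000 UMIs, 26.4% of WT and 26.2% of APP/PS1 members held a Cd300e UMI, and no B cell did; unthinned, the shares were 65.6% and 63.0% against 1.22% and 0.350% of B cells. B cells were taken as cells under the S100a8 and S100a9 limit with at least 3 UMIs of Cd79a and none of Csf1r. They served throughout as cells that should lack monocyte transcripts. Whether B cells themselves express genes that are not restricted to monocytes was not tested. The 245 WT and 286 APP/PS1 B cells had median depths of 4468 and 5770.5 UMIs. Cd36, a scavenger receptor for oxidized lipids, and Fabp4, a fatty acid carrier, were next among the lipid genes, at 395 and 394 CPM and at 414 and 505 CPM in members. Their log2 ratios to classical monocytes were 4.75 and 4.88 for Cd36, and 4.75 and 5.63 for Fabp4. The adrenergic receptor Adrb1 (4.92 and 5.48), the chloride cotransporter Slc12a2 (4.58 and 5.18), the activating receptor Lilra5 (4.51 and 5.37), the transglutaminase Tgm3 (4.44 and 5.73), the phosphatase Dusp16 (4.07 and 4.75), the kinase Rps6ka2 (4.06 and 4.23) and the transcriptional cofactor Cited4 (4.42 and 3.93) completed the 10 highest log2 ratios.

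The rule markers themselves stood at 648 and 674 CPM for Ace, the angiotensin-converting enzyme, 629 and 621 CPM for Adgre4, an adhesion G-protein-coupled receptor, 586 and 579 CPM for Ear2, an eosinophil-associated ribonuclease, and 580 and 570 CPM for Eno3, the muscle-type enolase, in WT and APP/PS1 members. In classical monocytes they lay between 22.6 and 78.1 CPM in WT and between 17.6 and 66.1 CPM in APP/PS1. The 321 WT and 220 APP/PS1 Csf1r-positive cells left out for 10 or more MHC class II UMIs held Ace at 371 and 366 CPM, levels between those of the nonclassical and the classical monocytes. In mm10 with the GENCODE M21 annotation, Ace is at chr11:105967945-105989964, Adgre4 at chr17:55749984-55853662, Ear2 at chr14:44102654-44103534, Eno3 at chr11:70657202-70662513 and Cd300e at chr11:115051917-115062177.

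**Figure D2:**
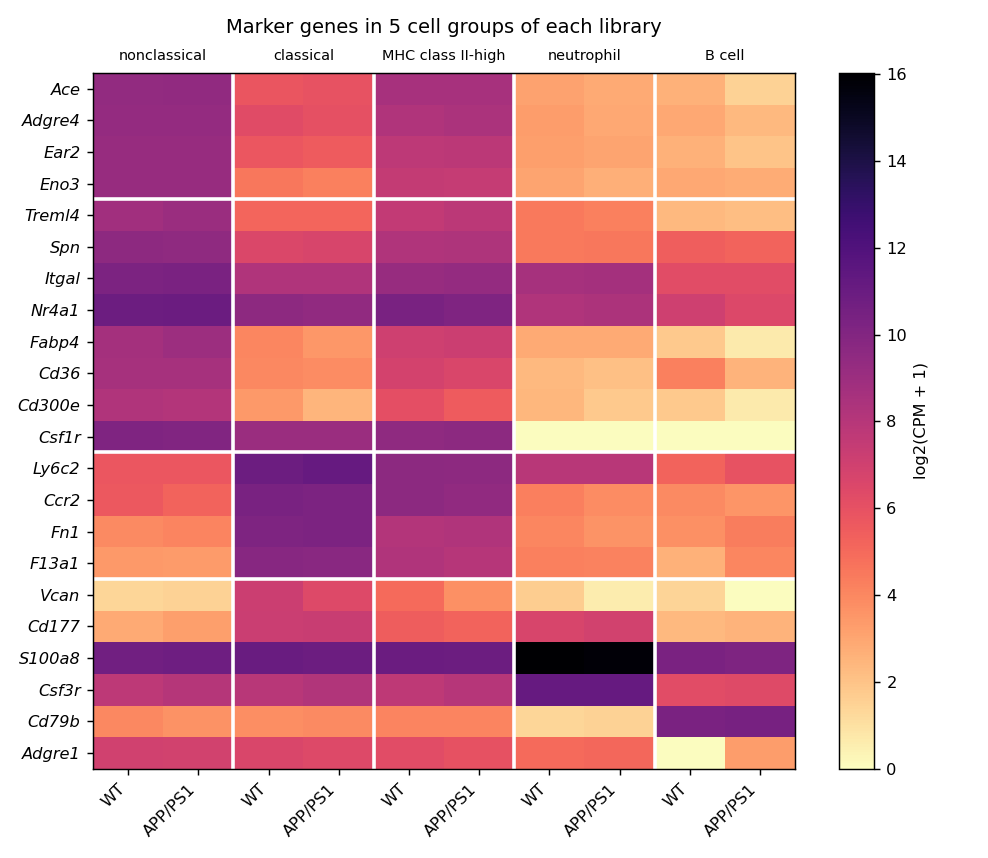
Level of 22 marker genes (rows) in 5 cell groups of each library (columns), colored by log2 of CPM + 1; white lines part the rule markers, other monocyte markers, classical genes of the rule, and a last block of further classical markers and markers of other cells. The 4 rule markers lie between 570 and 674 CPM in the nonclassical monocytes of both libraries and at 78.1 CPM or less in classical monocytes, and Cd300e, which the rule did not use, lies at 297 and 276 CPM against 9.69 and 4.67 CPM, while Csf1r is at 0 in neutrophils and B cells by their definition.

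Sequences before the start sites of these genes were read from RefSeq promoters of GRCm38.p6, which span 250 bases before to 50 after each start. Of the 4 rule markers and the 10 highest genes, 12 of 14 were matched; Fabp4 and Slc12a2 were not. On both strands the promoters were searched for AAAGGTCA (the NR4A site), TTGCNNCAA (C/EBP), GAGGAAGT (PU.1, the myeloid master factor) and GGGTGTGG (KLF), none of which contains another. Over all 32851 promoters of this length these were found in 1.51%, 2.08%, 3.20% and 3.56%. Adgre4 held the only match among the 12 genes, to the PU.1 letters on the reverse strand, shown in capitals at the end of its promoter, chr17:55749734-55750033 on the plus strand. The promoter of Cd300e, the gene with the highest ratio, at chr11:115061990-115062289 on the minus strand, is printed beside it and held none of the 4.
Adgre4: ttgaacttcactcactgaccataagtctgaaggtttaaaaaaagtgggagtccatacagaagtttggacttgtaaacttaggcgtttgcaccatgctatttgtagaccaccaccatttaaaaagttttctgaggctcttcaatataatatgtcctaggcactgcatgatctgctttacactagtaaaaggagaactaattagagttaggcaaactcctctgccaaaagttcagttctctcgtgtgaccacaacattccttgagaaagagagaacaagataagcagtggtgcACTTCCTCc
Cd300e: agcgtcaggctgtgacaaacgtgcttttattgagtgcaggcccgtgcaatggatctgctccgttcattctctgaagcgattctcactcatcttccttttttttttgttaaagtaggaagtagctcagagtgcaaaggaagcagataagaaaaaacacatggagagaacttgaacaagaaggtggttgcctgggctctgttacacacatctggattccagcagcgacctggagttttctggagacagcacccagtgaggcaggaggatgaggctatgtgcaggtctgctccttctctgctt

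Markers of other cell types were present in the members, as they were in B cells and classical monocytes. The 10 neutrophil markers summed to 4875 CPM in the WT and 5557 CPM in the APP/PS1 members, against 5945 and 5853 CPM in classical monocytes, 3654 and 3275 CPM in B cells and 186846 and 168068 CPM in neutrophils. The most abundant, S100a9, stood at 2321 and 2702 CPM, and after thinning a UMI of it was held by 69.2% and 68.8% of members and by 61.6% and 58.7% of B cells. The 5 erythroid genes summed to 10129 and 10612 CPM with Hbb-bs, a beta-globin, the most abundant; Hba-a1 and Hba-a2 are near-identical copies whose reads cannot be split with certainty. Hbb-bs was found in 37.4% and 21.6% of thinned members and in 35.1% and 18.5% of thinned B cells. In B cells the erythroid sums were 22104 and 3543 CPM. The thinned shares of S100a9 and Hbb-bs lay above those of B cells, most for S100a9 in APP/PS1, and both genes were thus present in cells that should lack them.

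Markers of the remaining lineages were low. B cell markers summed to 185 and 179 CPM, almost all of it Ighm (158 and 148 CPM), with Cd79a at 0 by the rule, and platelet markers to 146 and 122 CPM, led by Pf4. NK cell markers summed to 100 CPM in the WT and 153 CPM in the APP/PS1 library, led by Gzma, a granzyme, at 76.7 and 107 CPM. A Gzma UMI was held by 1.62% and 2.34% of thinned members and by 1.22% and 2.10% of thinned B cells. T cell markers summed to 21 and 20 CPM, with Cd3d and Trbc2 the most abundant, dendritic cell markers to 2 and 3 CPM with Clec9a and Siglech at 0, and basophil markers to 3 and 1 CPM. Of the macrophage markers Adgre1, which blood monocytes also express, made up nearly all of 128 and 122 CPM, and C1qa, C1qc and Timd4 were at 0 in both libraries. At least 1 Ppbp or Pf4 UMI was found in 35.3% of WT and 29.9% of APP/PS1 members, and 25.5% and 25.9% of members held at least 2 UMIs of the T, NK, B, basophil or dendritic cell markers or 20 of the erythroid genes. No doublet caller was run; the comparisons were repeated without these cells.

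Against classical monocytes of the same library, the transcription factors split. Of 24 listed factors 22 met the minimum, 6 were past the fold upward and 5 downward. Over all genes that met it, 6.36% were past the fold upward and 5.59% downward. The median log2 ratio of the listed factors that met it was 0.26 in WT and 0.03 in APP/PS1. The upward members were Nr4a1, the factor nonclassical monocytes depend on, with Pou2f2, Klf4, Hes1, Tcf7l2 and Bcl6. Nr4a1 stood at 1839.8 CPM in the WT and 1950.3 CPM in the APP/PS1 members against 757 and 683 CPM in classical monocytes, log2 ratios of 1.28 and 1.51. Pou2f2, an octamer-binding factor, reached 2.06 and 1.93, Hes1, a Notch target, 3.33 and 2.74, and Tcf7l2, a Wnt effector, 3.93 and 3.37. Cebpa, Nr4a2, Maf and Batf3 were among the lower ones, with Cebpa, a myeloid factor, at -1.59 and -1.67. List members outside the rule for named genes are given here and below as examples chosen after their values were seen.

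Of 18 adhesion genes that met the minimum, 9 were higher and 2 lower in nonclassical monocytes, beside 6.36% and 5.59% of all genes that met it, with medians of 1.04 and 0.90. Itgal, the alpha chain of the integrin LFA-1, stood at 1218 and 1237 CPM against 296 and 294 CPM in classical monocytes (2.04 and 2.07). Itgax (3.70 and 3.40), Pecam1, the endothelial contact molecule CD31 (3.38 and 2.78), the sphingosine phosphate receptor S1pr5 (3.20 and 3.05) and Spn, which encodes CD43 (3.06 and 2.88), had the highest ratios. Cx3cr1 was less far apart, at 573 and 556 CPM against 233 and 274 CPM (1.30 and 1.02). The integrin chain Itgb7 was lower, at -1.60 and -1.49.

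Receptors for IgG were split. Of 9 Fc receptor and complement genes that met the minimum, 2 were higher and 5 lower, beside 6.36% and 5.59% of all genes that met it. The medians of the 9 were -1.09 and -1.04. Fcgr4, which binds IgG2 subclasses, was higher at 403 and 334 CPM against 38.4 and 34.3 CPM (3.39 and 3.28), as was the C5a receptor C5ar1 (1.22 and 1.02). The other Fc-gamma receptors were lower, with Fcgr1 at -1.77 and -2.04, Fcgr3 at -1.09 and -1.13 and the inhibitory Fcgr2b at -1.13 and -1.04, and so were C3 and properdin, encoded by Cfp. Fcer1g, the signalling chain of activating Fc receptors, differed by less than 2-fold (0.44 and 0.43).

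Lipid genes were mixed. Of 16, 6 were higher (Cd36, Fabp4, Apoc2, Abcg1, Hmox1 and Pltp) and 3 lower (Msr1, Nceh1 and Cd93). Over all genes that met the minimum, 6.36% were higher and 5.59% lower. The medians of the lipid list were 0.78 and 0.44. Apoe, which carries cholesterol, stood out for a ratio that differed between the libraries, at 1.49 in WT and 0.34 in APP/PS1. The Apoe level in members was 2538 CPM in the WT and 2222 CPM in the APP/PS1 library. In classical monocytes it was 903 and 1760 CPM. An Apoe UMI was held by 71.5% and 66.9% of thinned members, but also by 41.2% and 39.9% of thinned B cells. The part of background in the Apoe levels and ratios was not tested.

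Survival genes had 7 of 14 higher and none lower, beside 6.36% and 5.59% of all genes, with medians of 0.88 and 0.98. However, the 7 include Csf1r, which the rule required, and 3 near-identical copies of Bcl2a1. The anti-apoptotic Bcl2 was at 206 and 205 CPM against 28.1 and 31.0 CPM (2.87 and 2.73), and Bcl2a1a, Bcl2a1b and Bcl2a1d had log2 ratios between 3.61 and 4.25, although these copies can share reads. The death genes Bbc3 (1.71 and 1.48) and Pmaip1 (1.33 and 1.11) were higher too, as was Csf1r (1.08 and 1.03). Interferon response genes had none of 19 higher and 12 lower, beside the same shares of all genes, and medians of -1.49 and -1.42. Slfn5 (-2.93 and -2.81), Usp18 (-2.54 and -2.69) and Ifi204 (-1.33 and -1.42) were among the lower ones, whereas Ifitm3 and Ly6e, the most abundant, differed by less than 2-fold.

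Fewer members of the remaining lists were past the fold. For these lists too, the shares over all genes that met the minimum were 6.36% higher and 5.59% lower. Of 16 inflammatory genes, Nfkbiz was higher and Ccl9, Nlrp3, Ccl2 and Cxcl10 were lower, with medians of -0.43 and -0.20. Of 24 Alzheimer risk homologues and amyloid processing genes, Ctsb, a lysosomal protease (1.25 and 1.39), and Abi3 (1.53 and 1.69) were higher and Trem2, a lipid-sensing receptor, was lower at 16.9 and 15.2 CPM against 61.3 and 47.3 CPM (-1.86 and -1.64). The medians of this list were -0.12 and -0.15. Of 16 immediate early genes Nr4a1, Jun and Dusp2 were higher and Fosb and Ier3 lower. Of 11 antigen presentation genes H2-K1 was higher and H2-DMa and H2-DMb1 lower. Among the proliferation genes 1 met the minimum, Pcna, at 95.8 and 106 CPM in members, and the mitotic cyclin Ccnb1 was at 0 in both libraries.

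Prtn3 led the 10 lowest ratios outside the rule genes. This granule protease of early myeloid cells, proteinase 3, had 9 UMIs in the WT and 3 in the APP/PS1 members, a log2 ratio of -6.90 (-8.03 to -5.97) and -7.05 (-9.34 to -5.50). Vcan, the matrix proteoglycan versican, followed at -6.53 and -5.65, and then Gas7 (-5.48 and -5.77), the collagen-binding integrin chain Itga1 (-4.69 and -5.07), Cd177 (-4.56 and -4.24), Mfsd7a (-4.47 and -4.49), Aoah, an endotoxin hydrolase (-4.47 and -3.92), Olfm1 (-4.22 and -4.43), Cd93 (-4.13 and -3.94) and Smim5 (-3.93 and -4.57). The rule genes Ly6c2, Ccr2, Fn1 and F13a1 stood at 50.9, 50.1, 14.3 and 9.79 CPM in WT members and at 53.2, 35.7, 16.3 and 9.26 CPM in APP/PS1 members.

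**Figure D3:**
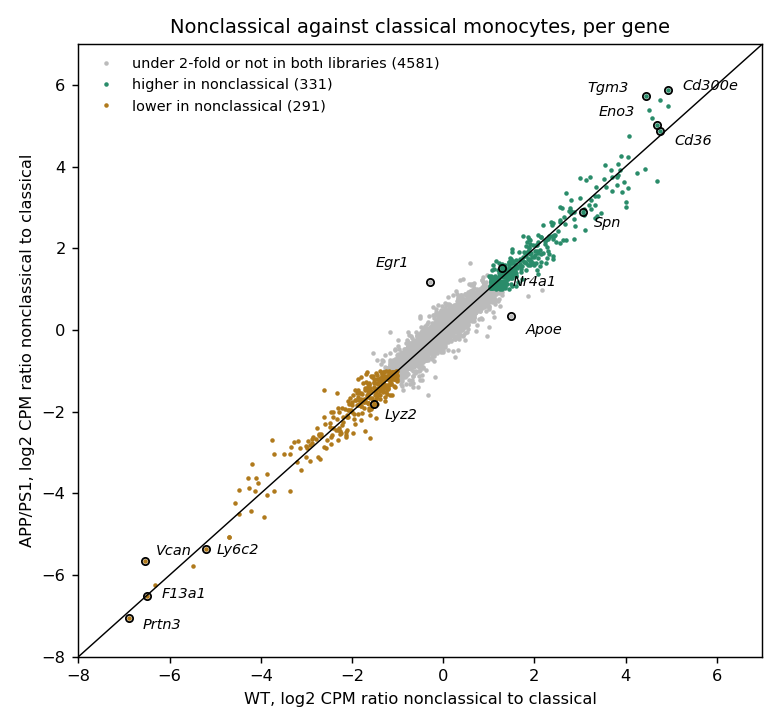
Log2 ratio of CPM in nonclassical to classical monocytes in the WT library (x axis) and the APP/PS1 library (y axis), 1 point per gene among 5203, with the line of equality. The 331 genes higher (green) and 291 lower (brown) by at least 2-fold in both libraries run from Prtn3 at -6.90 and -7.05 to Cd300e at 4.94 and 5.89, and Tgm3 (4.44 and 5.73) and Apoe (1.49 and 0.34) are among the genes that lie off the line.

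The second question was how nonclassical monocytes differed between APP/PS1 and WT. A gene counted as past the fold where its log2 ratio of CPM, APP/PS1 to WT, was at least 0.5 in size, and was considered only with 200 or more UMIs in the members of a library. Of 5664 such genes 57 (1.01%) were higher and 95 (1.68%) lower in APP/PS1, and the median over all of them was -0.02. For all 152 the counting interval excluded 0, which followed from the fold and the minimum that chose them and adds no support. The excess of lower genes moved with this minimum: the WT members held more UMIs in all, so that 200 UMIs stood for 18.1 CPM of the WT but 26.4 CPM of the APP/PS1 members, and 55 of the 95 lower genes met the minimum only through WT, against 6 of the 57 higher genes that met it only through APP/PS1. With a minimum of 26.4 CPM on the mean of both libraries, which treats them alike, 4698 genes remained, of which 47 (1.0%) were higher and 50 (1.06%) lower, so no lean toward lower genes is read from the counts. The neutrophil, erythroid and NK marker sums given above were also higher in APP/PS1 members, and their part in these ratios was not tested. For comparison, each ratio is set beside that of classical monocytes, which share the libraries, so that likeness between the classes is not independent support. The 52 higher genes that could be measured in classical monocytes had a median log2 ratio of 0.67 in nonclassical and 0.46 in classical monocytes, and the 59 lower ones -0.66 and -0.37; the genes were chosen by their nonclassical ratio, so these sizes are not compared.

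Trf, which encodes the iron carrier transferrin, had the highest ratio. It stood at 60.4 CPM in the WT (667 UMIs) and 301 CPM in the APP/PS1 members, 4.98-fold higher (4.57 to 5.44), a log2 ratio of 2.32 (2.19 to 2.44). In classical monocytes it was 135 and 311 CPM (1.21), and in neutrophils 69.7 and 80.2 CPM. After thinning, 5.57% of WT and 24.2% of APP/PS1 members held a Trf UMI and no B cell did; unthinned, the shares were 21.6% and 65.4% against 1.22% and 4.55% of B cells. The APP/PS1 members thus lay above the neutrophils and B cells of their own library. Slc40a1, the iron exporter ferroportin, was also among the 10 highest (17.1 and 31.3 CPM, 0.87). At 362 and 378 CPM it was more abundant in neutrophils. Its share of thinned WT members (1.08%) was below that of WT B cells (1.63%), and no expression is read from it. The APP/PS1 shares were 2.07% of members and 0.699% of B cells.

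Ccl3, Jun and Ccrl2 were the next well-measured genes. Ccl3, a macrophage inflammatory protein, was at 54.4 CPM in the WT and 147 CPM in the APP/PS1 members (1.44, 1.29 to 1.58), and at 71.99 and 147 CPM in classical monocytes (1.03). Neutrophils held Ccl3 at 245 and 308 CPM, more than the members. A Ccl3 UMI was held by 3.77% and 10.4% of thinned members and by 0% and 1.75% of B cells. Jun, a subunit of the transcription factor AP-1, was at 437 and 994 CPM (1.18, 1.13 to 1.24) and had a classical ratio of 1.42. Its thinned shares were 29.6% and 52.1% in members, against 21.6% and 25.9% in B cells. Ccrl2, an atypical receptor that presents chemerin, was at 143 and 280 CPM (0.97, 0.87 to 1.06), with a classical ratio of 1.11. A Ccrl2 UMI was held by 11.9% and 23.6% of thinned members, and by 0.816% and 2.45% of B cells. The remaining genes of the 10 highest were BC035044 (0.97), the heat shock gene Hsph1 (0.87), Stfa2l1, a stefin with near-identical copies (0.91), and Jaml, a junctional adhesion molecule (0.89). Stfa2l1 and Jaml were far more abundant in neutrophils, at 795 and 884 CPM and at 506 and 621 CPM. The ratio of Stfa2l1 fell short of the fold with S100a8 and S100a9 under 2% in place of 4% (0.36) and with cells thinned to 1000 UMIs (0.32).

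Egr1, an early growth response factor, had ratios of opposite sign in the monocyte classes. It was at 439 CPM in the WT and 838 CPM in the APP/PS1 nonclassical monocytes (0.93, 0.88 to 0.99), but at 540 and 370 CPM in classical monocytes (-0.54, -0.61 to -0.48). Neutrophils held it at 1727 and 2741 CPM (0.67). Fosb, another AP-1 subunit, showed the same pattern, at 46.7 and 70.5 CPM in nonclassical (0.60, 0.42 to 0.77) and 284 and 194 CPM in classical monocytes (-0.55, -0.64 to -0.46). A Fosb UMI was held by 3.28% and 5.47% of thinned members and by 9.80% and 9.79% of B cells. Whether B cells express Fosb themselves was not tested, so no difference in expression is read from these shares.

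Hbegf, which encodes the heparin-binding EGF-like growth factor, was the lowest. It had 450 UMIs in WT and 3 UMIs in APP/PS1 members, 40.8 and 0.397 CPM, a log2 ratio of -6.68 (-8.97 to -5.13). A gap in the same direction was present in classical monocytes (22.5 and 2.21 CPM, a smaller log2 ratio of -3.35, -4.13 to -2.66), neutrophils (60.3 and 1.97 CPM) and B cells (54.3 and 1.18 CPM). The WT share of thinned members with a UMI, 4.08%, was below the 6.94% of WT B cells, and no expression is read from it. The gap was thus not restricted to nonclassical monocytes.

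Cd14, the endotoxin co-receptor, was at 144 CPM in the WT and 53.6 CPM in the APP/PS1 members (-1.43, -1.59 to -1.27). It was also lower in APP/PS1 classical monocytes (396 and 188 CPM, -1.08) and neutrophils (-1.60). Ddit4, a stress-induced inhibitor of mTORC1, was at 35.7 and 10.7 CPM in members (-1.74, -2.10 to -1.39) and had a classical ratio of -0.39. Its thinned shares were 3.10% and 0.801% in members against 0.816% and 3.15% in B cells. The APP/PS1 share did not exceed that of B cells, and no expression is read from it. Vill, a villin-like actin regulator (-1.53), and Skint3 (-1.19) had classical ratios of -1.22 and -1.07. Gm47283, annotated on chromosome Y although all mice were female, was at 33.3 and 15.7 CPM (-1.08), and B cells held it at 93.8 and 29.4 CPM. Its share of thinned WT members, 3.68%, was below the 6.94% of WT B cells, and no expression is read from it.

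The rest of the 10 lowest are given beside their classical values as a description, since their choice by the nonclassical ratio favors the larger size there. Of the 10 lowest genes 6 met the minimum only through WT, and 5 would meet that on the mean CPM of both libraries. Id2, an inhibitor of basic helix-loop-helix factors, was at 362 CPM in the WT and 175 CPM in the APP/PS1 members (-1.05, -1.14 to -0.96), against 290 and 247 CPM in classical monocytes (-0.23). A UMI of it was held by 27.4% and 14.2% of thinned members, and by 4.08% and 2.80% of B cells. Itgb3, the beta chain of the vitronectin receptor, was at 69.0 and 33.2 CPM (-1.06), with a classical ratio of -0.03. Hs6st1, a heparan sulfate sulfotransferase, was at 48.3 and 23.1 CPM (-1.06), with a classical ratio of 0.04. Its thinned shares were 5.21% and 1.80% in members against 2.04% and 1.75% in B cells. The APP/PS1 share lay near that of B cells, and no expression is read from it. Il10, an anti-inflammatory cytokine, was at 20.2 and 8.86 CPM (-1.19, -1.61 to -0.79), and classical monocytes held 8 and 0 UMIs of it, against 223 and 67 in members. The Il10 shares of thinned members, 1.62% and 0.734%, lay near the 0.816% and 1.05% of B cells.

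**Figure D4:**
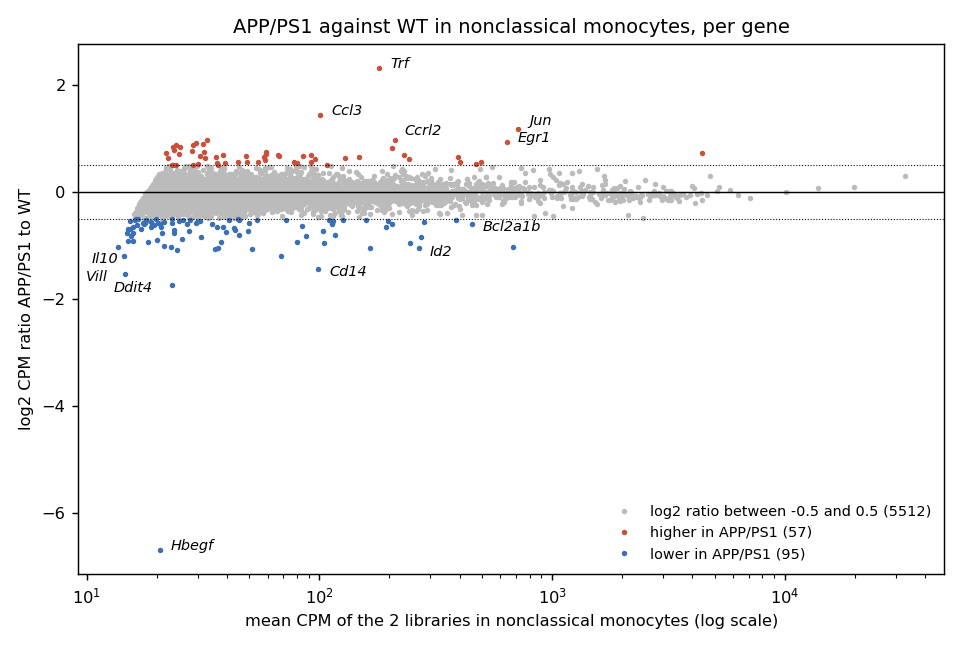
Log2 ratio of CPM, APP/PS1 to WT, in nonclassical monocytes (y axis) by the mean CPM of both libraries (x axis, logarithmic), 1 point per gene among 5664; dotted lines mark log2 ratios of 0.5 and -0.5. The 57 higher genes (red) are led by Trf at 2.32 and the 95 lower genes (blue) by Hbegf at -6.68, and most other genes lie near 0.

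Of the lists of gene function, that of the immediate early genes had the highest median. Of 16, Jun, Egr1, Atf3, Dusp2 and Fosb were past the fold upward and Ier3 downward, beside 1.01% and 1.68% of all genes. The median log2 ratio of the list was 0.42 against -0.02 over all genes. Atf3, a stress-response factor, was at 402 and 590 CPM (0.55) and the phosphatase Dusp2 at 326 and 482 CPM (0.56). An Atf3 UMI was held by 27.1% and 39.2% of thinned members and by 22.9% and 38.1% of B cells, which held the gene at 561 and 978 CPM, so no difference in expression is read from its shares. Zfp36 (0.44), Jund (0.45), Fos (0.41), Dusp1 (0.39) and Btg2 (0.36) had positive ratios short of the fold, while Nr4a1 was at 0.08 and Junb at -0.02. Ier3 was at 29.4 and 18.0 CPM (-0.71).

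Of 15 inflammatory genes, Ccl3, Ccl4, Tnf, Ptgs2 and Nfkbiz were higher and Il10 was lower in APP/PS1, beside 1.01% and 1.68% of all genes. The median of the list was 0.00. Nfkbiz, an atypical NF-kappa-B inhibitor, was at 306 CPM in the WT and 485 CPM in the APP/PS1 members (0.67, 0.60 to 0.73), with a classical ratio of 0.43. Ccl4 was at 44.7 and 73.0 CPM (0.71) and Ptgs2, the inducible cyclooxygenase, at 50.7 and 82.4 CPM (0.70), with classical ratios of 1.16 and 0.63. Both were more abundant in neutrophils, Ccl4 at 338 and 369 CPM and Ptgs2 at 1053 and 1107 CPM. With S100a8 and S100a9 under 2% in place of 4%, the ratio of Ptgs2 in members was 0.40, short of the fold. A Ccl4 UMI was held by 2.69% and 4.87% of thinned members and by 1.22% and 1.40% of B cells. The intervals of these Ccl4 shares overlap in WT but not in APP/PS1. Tnf was at 29.4 and 47.3 CPM (0.69, 0.47 to 0.91), with a classical ratio of -0.37. Il1b, the most abundant of the list, was at 0.10.

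Interferon response genes had 3 of 15 higher (Slfn1, Rsad2 and Isg15), Ifi44 lower and a median of 0.18, beside 1.01% higher and 1.68% lower over all genes. Isg15, a ubiquitin-like modifier, was at 23.8 and 40.1 CPM (0.75), Rsad2, the antiviral enzyme viperin, at 37.2 and 59.4 CPM (0.67), Slfn1 at 62.7 and 92.7 CPM (0.56) and Ifi44 at 26.5 and 15.7 CPM (-0.75). The classical ratios of these 4 genes were 0.40, 0.78, 0.24 and -0.26. The 3 higher genes were more abundant in neutrophils, with Isg15 at 372 and 496 CPM, Rsad2 at 412 and 557 CPM and Slfn1 at 719 and 937 CPM there. With S100a8 and S100a9 under 2%, Rsad2 (0.498) and Slfn1 (0.459) fell short of the fold. Thinned shares of Isg15 were 1.75% and 2.54% in members against 1.22% and 1.75% in B cells, those of Rsad2 2.56% and 2.94% against 1.22% and 2.10%, and those of Slfn1 4.49% and 5.21% against 4.08% and 2.10%. The intervals of members and B cells overlap for all 3 genes in both libraries, and no difference in expression is read from these shares. The most abundant members, Ifitm3 and Ly6e, were at 0.10 and -0.09.

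Among transcription factors 1 of 19 was higher and 3 were lower, beside 1.01% and 1.68% of all genes. The median of the list was 0.01. Bcl6, a transcriptional repressor, was at 114 CPM in the WT and 180 CPM in the APP/PS1 members (0.66, 0.55 to 0.77), with a classical ratio of 0.41. Nfil3, a bZIP repressor, was at 221 and 108 CPM (-1.04, -1.16 to -0.92), with a classical ratio of -0.55. Id2, given above, was also among the lower factors. The lineage factors Nr4a1, Cebpb, Klf2 and Pou2f2 lay between 0.07 and 0.12.

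Of 19 adhesion genes only Pecam1 was past the fold, at 112 CPM in the WT and 63.5 CPM in the APP/PS1 members (-0.82, -0.97 to -0.66). The median of the list was 0.00. For this and the following lists, the shares over all genes were 1.01% higher and 1.68% lower. The thinned shares of Pecam1 were 10.8% and 7.01% in members and 8.57% and 5.94% in B cells, with intervals that overlap, and B cells held it at 74.0 and 64.8 CPM. Itgal was at 0.02, Cx3cr1 at -0.04 and Spn at -0.07. Lipid genes had Lpl, lipoprotein lipase, lower at 49.3 and 23.8 CPM (-1.05, -1.30 to -0.80), against a classical ratio of 0.22, and a median of 0.00 over 14 genes. Of 22 Alzheimer risk homologues and amyloid processing genes, Inpp5d, the phosphatase SHIP1, was lower at 246 and 162 CPM (-0.60, -0.70 to -0.50), and the median was -0.06. The mouse App gene was at 141 and 134 CPM. A UMI of Inpp5d was held by 19.4% and 16.4% of thinned members and by 24.5% and 10.5% of B cells, which held it at 237 and 174 CPM.

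Survival genes had Pmaip1, which encodes the death activator Noxa, higher at 148 and 262 CPM (0.82, 0.73 to 0.92; classical ratio 1.05) and Bcl2a1b lower at 546 and 362 CPM (-0.59, -0.66 to -0.53), with a median of 0.01 over 14 genes. Bcl2a1a, Bcl2a1b and Bcl2a1d are near-identical copies, and their sum was 1154 CPM in the WT and 1071 CPM in the APP/PS1 library (-0.11, -0.15 to -0.07), so the value of Bcl2a1b alone is uncertain. None of 9 Fc receptor and complement genes and none of 10 antigen presentation genes was past the fold, with medians of 0.02 and -0.03. Of the classical markers Cd14 was lower and Chil3, a chitinase-like protein, higher at 75.8 and 116 CPM (0.62; classical ratio 1.21). Chil3 fell short of the fold, at 0.48, where members had to exceed 4 times the classical genes. Of 10 neutrophil markers Cxcr2 (0.67) and Stfa2l1 were higher, the latter with the losses given above, and of the NK markers Nkg7 (0.85). Thinned shares with an Nkg7 UMI were 0.494% and 1.202% in members and 0.408% and 1.05% in B cells, and are read as background.

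The marker genes of nonclassical monocytes themselves stayed within the fold. Ace was at 0.06, Adgre4 at -0.02, Ear2 at -0.02 and Eno3 at -0.03, values that the rule bears on. Of the 22 markers that the rule did not use none was past the fold, with Fabp4 the highest (0.29) and Itgax the lowest (-0.29).

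**Figure D5:**
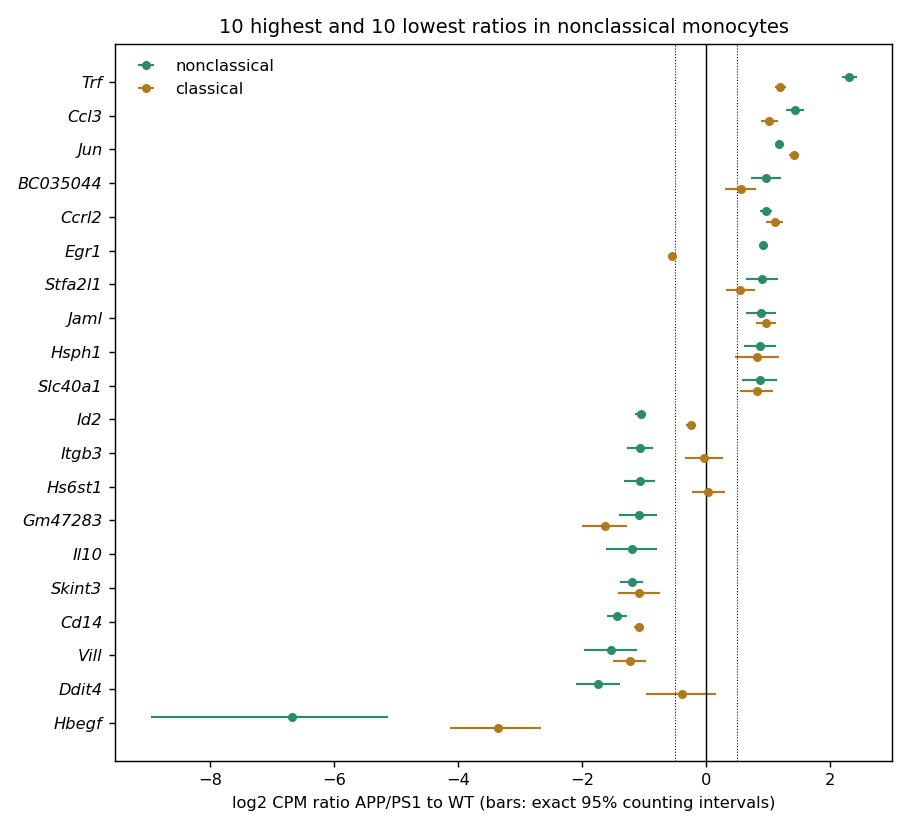
Log2 ratio of CPM, APP/PS1 to WT (x axis), of the 10 highest and 10 lowest genes in nonclassical monocytes (green), beside the same ratio in classical monocytes of the same libraries (brown), with 95% intervals that cover counting error only; dotted lines mark 0.5 and -0.5. Trf lies at 2.32 and 1.21, Egr1 lies on opposite sides of 0 in the classes, Id2, Itgb3 and Hs6st1 lie beyond -0.5 in nonclassical and within the dotted lines in classical monocytes, and Il10 has no classical point because it had 0 UMIs in APP/PS1 classical monocytes.

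Genes past the fold lay on every autosome and on chromosomes X and Y. Of all 5664 genes 2.68% were past it in either direction. Chromosome 9 had 15 of 282 (5.32%), with 6 higher and 9 lower. It holds Trf (chr9:103204001-103230444), Ccrl2 (chr9:111054486-111057519), Vill (chr9:119052778-119071525) and Jaml (chr9:45079183-45108534). Chromosome 18 had 4 higher and 2 lower of 157 (3.82%). It holds Hbegf (chr18:36504927-36515805) and Cd14 (chr18:36725067-36726798), which lie close together and were both among the 10 lowest. Both chromosomes were chosen after the values were seen, and no test was made. Of the other genes named, Jun lies at chr4:95049034-95052222, Ccl3 at chr11:83647844-83649355, Id2 at chr12:25093799-25097140, Itgb3 at chr11:104608000-104670476 and Il10 at chr1:131019845-131024974.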

How the data were processed

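The authors sequenced 10x Genomics libraries and deposited raw UMI counts per gene and barcode called a cell, made with Cell Ranger 5.0.0 on mm10; no other unit was used, and all 32285 genes were read. Replicates could not be compared, as each genotype was 1 library. The cell limits, members and gene lists were chosen with earlier results of these data known. UMIs were summed over the cells of a class and library and divided by their total (CPM). Intervals (95%) were exact Poisson for levels, exact conditional binomial for ratios, Clopper-Pearson for shares and Newcombe for differences of shares. Count tests such as edgeR's and DESeq2's were not run, since no residual degrees of freedom exist; edgeR 4.0.16 in R 4.3.3 gave TMM scaling factors only. Genes needed at least 200 UMIs. For shares of cells with a UMI, every cell was thinned to 1000 UMIs. The genes named were the rule genes, of each list the 4 of highest CPM in the members and all past the genotype fold, and the 10 highest and 10 lowest ratios of each comparison. Mx1 and Ly6a2 were not matched in the table. Some listed genes are counted but not named. Tested on simulated data for the genotype comparison (5657 genes), intervals covered the true ratio for 95.4% of genes. All genes changed by a log2 ratio of 1 were recovered, and 0.0183% of unchanged genes passed the fold. The simulated counts varied by counting error only, which the intervals assume. These values thus give no error rate for differences between mice or libraries. Promoters were RefSeq's (GRCm38.p6) and gene positions GENCODE M21's. Scripts used Python 3.11.15, numpy 2.4.6, pandas 2.3.3, scipy 1.17.1 and matplotlib 3.10.9. Alternatives changed the cell limits, depth, scaling and gene minimum, as given in the closing section.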

Additional observations from a re-analysis of the deposited data

Results flagged for a closer look

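Egr1 and Fosb had genotype ratios of opposite sign in the monocyte classes, past a log2 ratio of 0.5 in size in both, and each with a counting interval that excluded 0. The log2 ratio of CPM, APP/PS1 to WT, was 0.93 for Egr1 in nonclassical monocytes and -0.54 in classical monocytes, and for Fosb it was 0.60 and -0.55. With 1 library per genotype the difference between the classes was not tested, and both classes come from the same libraries. Other named genes that met the minimum of UMIs and had opposite signs with intervals that excluded 0 were within 0.5 in at least 1 class, among them Tnf (0.69 and -0.37), Lpl (-1.05 and 0.22) and Apoe (-0.19 and 0.96). Thinned shares of members with a Fosb UMI (3.28% in WT, 5.47% in APP/PS1) lay below those of B cells (9.80% and 9.79%). No difference in expression is read from these shares. Egr1 is abundant in neutrophils (1727 CPM in the WT and 2741 CPM in the APP/PS1 library), and the part of free neutrophil RNA in either ratio was not tested.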

How the results depend on the processing

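No paired analysis was possible because each genotype was 1 library, and for the same reason no replicate could be left out and no edgeR or DESeq2 test was run. Of 43 named genes past the genotype fold 36 stayed past it under all 16 alternatives, and of 60 past the class fold 56 did. None of these 43 and 60 ratios reversed in sign. Changes of sign were not counted for the named ratios within the fold. The 2 alternatives on the minimum of UMIs per gene cannot move a ratio. Genes including Chil3, Fosb, Ptgs2, Rsad2, Slfn1 and Stfa2l1 fell short of the genotype fold under at least 1 alternative (Fosb 0.48 without the MHC class II limit), and Apoc2, Ccrl2, Csf1r and H2-K1 of the class fold. Alternatives without the shared barcodes, with a marker sum of at least 1 and with a minimum on the mean CPM of both libraries were chosen after seeing the data. With at least 50 UMIs per gene (8665 genes) 191 were higher and 293 lower in APP/PS1 members, with at least 500 (3309 genes) 28 and 41, and with each cell thinned to 1000 UMIs (1825 genes) 19 and 43; these minimums, too, could be met through either library, so they do not bear on the balance of higher and lower genes, which was 47 and 50 with the minimum on the mean CPM (4698 genes). Against classical monocytes 494 genes were lower with at least 50 UMIs, 160 with at least 500, 73 after thinning, where 144 were higher among 1220 genes, and 175 without cells that held markers of another lineage (3853 genes). The difference in the share of nonclassical monocytes was -5.45 percentage points with limits at the 5th and 95th percentiles of UMIs and genes and -3.55 without cells that held markers of another lineage. The ratio of median genes per cell, APP/PS1 to WT, was 1.04, and 0.987 after thinning. The median ratio over all genes was -0.02 with TMM scaling and -0.05 with totals without abundant gene classes.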
